A study of Sus scrofa domesticus with 12 samples.

Results

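The genes described here are the ligands and receptors of the interleukin, tumor necrosis factor (TNF) and colony stimulating factor (CSF) families in pig muscle after volumetric muscle loss (VML). They were taken by name, as every row of the deposited table whose symbol begins with IL and a number, TNFRSF, TNFSF, or CSF and a number, without the ILF genes. This gave 89 of 11506 named genes: 45 ligands, 41 receptors or receptor chains, the inhibitors IL1RN and IL18BP, and 1 row named IL1-R MYD88, which was at 0 in 11 of 12 libraries and was given no role. RNA-seq was made from 12 peroneus tertius (PT) muscles of 11 female Yorkshire Cross pigs, 12 weeks after surgery. In the 10 injured limbs a block of muscle had been cut from the middle of the PT, and the defect was left empty (No repair, here non-repaired, n = 2), filled with a hyaluronic acid hydrogel (HA, here Hya-repaired, n = 2), or filled with a decellularized extracellular matrix (ECM-SIS, here ECM-repaired, n = 6). In the 2 sham-operated limbs (Sham) the muscle was exposed and no tissue was taken. Both limbs of pig 017 were used, the left non-repaired and the right Hya-repaired, and the other pigs contributed a single limb, so the tests, which treat limbs as independent, hold 1 pair that shares an animal. All 6 ECM limbs carry the SIS label (small intestinal submucosa). The legend of the study's RNA-seq figure instead lists 2 kinds of ECM in equal numbers, SIS and urinary bladder matrix. The group may thus mix both, and the kinds were not told apart here. The study reported lasting inflammation in SIS-repaired limbs and no major adverse events in the other limbs.

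Interleukins, TNF ligands and CSFs are secreted or membrane-bound signals by which immune cells, fibroblasts, endothelium and muscle fibers act on one another. Most interleukin and CSF receptors signal through JAK kinases and STAT factors, receptors of the interleukin-1 and interleukin-18 type signal through MYD88 and IRAK kinases, and TNF receptors signal through TRAF adaptors to NF-kB. After muscle injury, macrophages are a main source and target of these signals. Receptors are often chains that are shared between ligands, so a level of one chain does not give the level of a complete receptor.

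Levels are TPM, relative transcript abundances that have a fixed sum in a library: a share of a library that is corrected for transcript length, so levels of different genes can be set side by side. TPM keep no count of reads, and the depth of each library is therefore unknown. Because TPM are shares, a fall of some abundant transcripts raises the rest, and a rise of others lowers the rest. Over the tested genes the median TPM was 6.21 and 7.64 for the shams, against 10.2 to 18.4 for injured limbs, with the highest value in the ECM-repaired limb of pig 024. For this reason each comparison was also made after rescaling by trimmed means, which brought the log2 fold change of the median gene from 0.73 to 0.01 between VML-injured and sham-operated muscle. The defining genes of muscle fibers were present in all 12 libraries and summed to 122332 and 125186 TPM for the shams against 8314 to 61085 TPM for injured limbs. Fibroblast markers went the other way, from 1118 and 1557 TPM for the shams to 37157 to 96101 TPM for injured limbs. The part of either set of markers in the median TPM was not tested.

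Most ligands were scarce, and receptors were more often measurable. Of the 45 ligands, 27 (60%) did not reach 1 TPM in any limb, against 10 of the 41 receptors (24.4%). Levels of at least 1 TPM in all 12 limbs were found for 13 receptors, 8 ligands and IL18BP. The 5 members at 0 in every library were all ligands: IL19, IL20, IL22, IL29 and IL1B2. Among the classical inflammatory and helper T cell cytokines, the highest limb held 0.195 TPM for IL1A, 0.602 TPM for IL1B1, 0.490 TPM for IL17A, 0.217 TPM for IL2, 0.0891 TPM for IL4, 0.124 TPM for IL13 and 0.350 TPM for CSF2. The filter for the tests, 1 TPM or more in every library of any one condition, kept 38 members: 21 receptors, 16 ligands and IL18BP. Another 51 members were not tested, and their highest levels are given further on.

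Of the 38 tested members, 23 were higher in VML-injured than in sham-operated muscle (12 receptors and 11 ligands), and 1, the receptor IL6R, was lower (limma on log2(TPM + 0.5), adjusted p under 0.05 over 8782 genes). VML-injured here averages the means of the 3 injured groups without regard to their size. Much of the transcriptome moved in the same direction: 49.4% of all tested genes were higher and 7.66% were lower. The median log2 fold change was 1.30 for the 16 tested ligands, 0.91 for the 21 tested receptors and 0.73 for all tested genes. Among genes at 1 TPM or more in both sham-operated limbs, the ligand median was not above the receptor median.

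Whether a member was measurable in sham-operated muscle went along with these counts. Of the 27 tested members at 1 TPM or more in both sham-operated limbs, 13 (48.1%) were higher, beside 45.2% of the 7541 genes at that level. The other 11 passed the filter through injured limbs alone, which favors higher calls, and 10 of them were higher, beside 74.5% of the 1241 such genes. Among members at 1 TPM or more in both sham-operated limbs, 9 of 17 receptors and 4 of 9 ligands were higher, with median log2 fold changes of 0.89 and 0.80, beside 0.61 for all genes at that level. After rescaling, 13 members were higher (6 receptors and 7 ligands) and 5 were lower (IL6R, IL15RA, IL6ST, TNFRSF11B and CSF3), beside 29% and 28% of all genes. The rescaled median log2 fold change was 0.88 for all tested ligands and 0.16 for all tested receptors, but 0.046 and 0.14 for those at 1 TPM or more in both sham-operated limbs, 7 of the 16 ligands and 4 of the 21 receptors being below that level.

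**Figure D1:**
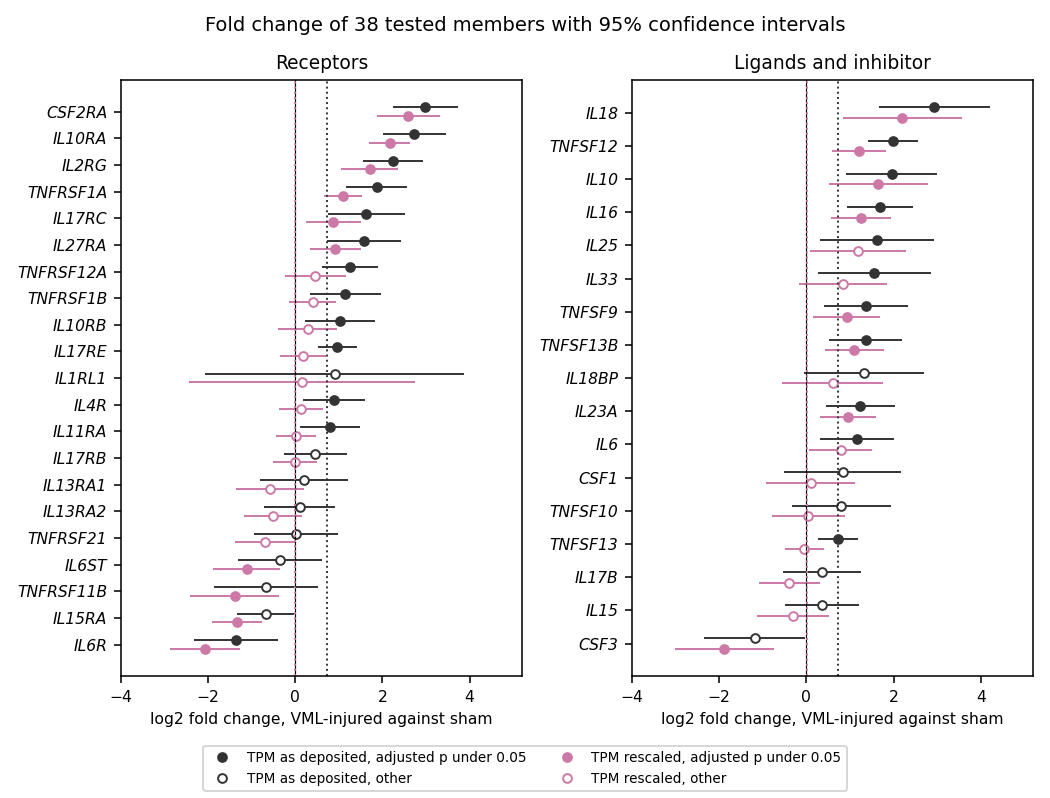
Log2 fold change between VML-injured and sham-operated muscle for the 38 tested members, with 95% confidence intervals from limma on log2(TPM + 0.5), for TPM as deposited (black) and rescaled (pink). Filled points passed an adjusted p of 0.05, and the dotted lines mark the median of all tested genes, 0.73 as deposited and 0.01 rescaled. The rescaled points lie to the left of the black ones throughout, CSF2RA and IL18 lie farthest to the right, and IL6R is the 1 member called lower on both scales.

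Bulk RNA does not separate more cells of a type from more RNA per cell. Markers of some cell types were higher in injured limbs, and those of others were not. The summed level of the leukocyte markers in the table was 11.2 and 15.8 TPM in sham-operated limbs and 89.2 to 290 TPM in injured limbs, with 6 of 6 tested markers higher. All 14 tested macrophage markers were higher, with sums of 48.2 and 74.2 TPM against 776 to 2293 TPM. T and NK cell markers summed to 3.65 and 6.56 TPM against 15.8 to 89.1 TPM (4 of 5 tested higher, PRF1 at 0 in 2 libraries), and all 7 tested fibroblast markers were higher. None of 8 endothelial markers was called, and 8 of 11 muscle fiber markers were lower. Of neutrophil and mast cell markers 2 of 4 tested were higher, with S100A8 at 0 in 3 libraries, and 0 of 1 tested B and plasma cell marker was called. After rescaling, 2 of the 8 endothelial and all 11 muscle fiber markers were lower, 2 of the 5 T and NK cell markers and 1 of the 4 neutrophil and mast cell markers were higher, and the leukocyte, macrophage and fibroblast counts did not change. The part of these cell types in the levels of the members was not tested.

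Among receptors, the largest differences were in chains that are carried mainly by leukocytes. CSF2RA, the ligand-binding chain of the GM-CSF receptor, was at 0.127 and 0.645 TPM in the sham-operated limbs, 7.53 and 6.59 TPM in the non-repaired limbs, 4.74 and 3.88 TPM in the Hya-repaired limbs, and 4.57 to 11.9 TPM (median 7.84) in the ECM-repaired limbs. Every injured limb lay above both sham-operated limbs, and the ranges did not come close. For this gene the log2 fold change was 2.98 ± 0.34 (SE, adjusted p = 2.01e-05, limma), and 2.60 after rescaling. Its ligand CSF2, or GM-CSF, did not exceed 0.350 TPM in any limb.

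IL10RA, the ligand-binding chain of the interleukin-10 receptor, was at 0.698 and 0.846 TPM in sham-operated limbs, 9.90 and 9.45 TPM in non-repaired limbs, 7.33 and 4.33 TPM in Hya-repaired limbs, and 5.36 to 14.8 TPM (median 9.99) in ECM-repaired limbs. The groups of injured limbs overlapped one another and none reached down to the sham-operated limbs. On the log2 scale the difference was 2.73 ± 0.34 (SE, adjusted p = 3.19e-05, limma), and 2.16 after rescaling. IL10RB, the second chain of that receptor, which interleukin-22 and interleukin-26 receptors share, was 3.35 and 3.71 TPM in sham-operated limbs and 5.04 to 15.4 TPM in injured limbs. Its log2 fold change of 1.02 (adjusted p = 0.0328, limma) fell to 0.29 after rescaling (adjusted p = 0.447).

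IL2RG, the gamma chain that the receptors for interleukin-2, interleukin-4, interleukin-7 and interleukin-15 have in common, was at 0.532 and 0.905 TPM in sham-operated limbs, 5.31 and 4.92 TPM in non-repaired limbs, 5.36 and 2.85 TPM in Hya-repaired limbs, and 5.60 to 11.99 TPM (median 6.22) in ECM-repaired limbs. The ECM-repaired limb of pig 018 held the highest value, and no injured limb fell within the sham-operated range. The log2 fold change was 2.25 ± 0.32 (SE, adjusted p = 9.26e-05, limma), and 1.71 after rescaling. The chains that pair with it did not move alike. IL4R was higher as deposited (0.89 on the log2 scale, adjusted p = 0.0346, limma) and not after rescaling (0.14, adjusted p = 0.64). IL15RA was 1.66 and 2.51 TPM in sham-operated limbs and 0.369 to 2.04 TPM in injured limbs, 9 of which lay below both sham-operated limbs. Its log2 fold change of -0.68 did not pass the threshold as deposited (adjusted p = 0.0691, limma) and passed it after rescaling (-1.33, adjusted p = 0.00144). IL2RB, IL2RA, IL7R and IL21R were under the filter.

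TNFRSF12A, also called Fn14, the receptor of TWEAK and a known injury-induced gene of muscle, had the highest level of all members in 11 of 12 limbs. It was at 54.2 and 65.1 TPM in sham-operated limbs, 112 and 201 TPM in non-repaired limbs, 199 and 98.7 TPM in Hya-repaired limbs, and 103 to 165 TPM (median 142) in ECM-repaired limbs. All injured limbs exceeded both sham-operated limbs, and the highest values were in pigs 023 (non-repaired) and 016 (Hya-repaired). On the log2 scale the difference was 1.26 ± 0.30 (SE, adjusted p = 0.0033, limma), but 0.46 after rescaling, where it was not called (adjusted p = 0.238).

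TNFRSF1A, the broadly expressed death domain receptor of TNF, was at 10.4 and 18.4 TPM in sham-operated limbs, 55.4 and 65.8 TPM in non-repaired limbs, 64.4 and 32.9 TPM in Hya-repaired limbs, and 37.9 to 77.3 TPM (median 49.0) in ECM-repaired limbs. The lowest injured limb, the Hya-repaired limb of pig 017, was still above both sham-operated limbs. For this gene the log2 fold change was 1.87 ± 0.32 (SE, adjusted p = 0.000412, limma) and stayed past the threshold after rescaling (1.09, adjusted p = 0.000938). TNFRSF1B, the TNF receptor of leukocytes and endothelium, was 3.72 and 7.99 TPM in sham-operated and 6.003 to 26.2 TPM in injured limbs, with 9 of 10 injured limbs above both. Its log2 fold change of 1.15 (adjusted p = 0.0195, limma) was 0.40 after rescaling (adjusted p = 0.184). The gene of TNF itself, outside the name rule, was under the filter. It was at 0.170 and 0.756 TPM in sham-operated and 0.150 to 0.872 TPM in injured limbs, which overlap.

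IL17RC and IL27RA were called higher on both scales. IL17RC, a chain of the receptor for interleukin-17A, was at 4.62 and 9.70 TPM in sham-operated limbs, 20.6 and 25.9 TPM in non-repaired limbs, 37.96 and 13.3 TPM in Hya-repaired limbs, and 12.9 to 29.2 TPM (median 20.2) in ECM-repaired limbs. The injured limbs did not overlap the sham-operated limbs, and the Hya-repaired limbs spanned nearly the whole injured range. The log2 fold change was 1.63 ± 0.41 (SE, adjusted p = 0.00488, limma) and 0.88 after rescaling (adjusted p = 0.0221). IL27RA, the interleukin-27 receptor subunit, was at 1.17 and 2.56 TPM in sham-operated limbs, 6.25 and 8.14 TPM in non-repaired limbs, 8.89 and 3.05 TPM in Hya-repaired limbs, and 4.62 to 10.8 TPM (median 5.87) in ECM-repaired limbs. All injured limbs were above both sham-operated limbs. For this gene the log2 fold change was 1.58 ± 0.39 (SE, adjusted p = 0.00467, limma) and 0.92 after rescaling (adjusted p = 0.0128). IL17RE (0.96 on the log2 scale, 21.5 to 28.4 TPM in injured limbs) and IL11RA (0.81, 22.2 to 50.4 TPM) were called as deposited and not after rescaling.

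The receptor IL6R moved the other way. IL6R, the ligand-binding chain for interleukin-6, was at 4.09 and 2.95 TPM in sham-operated limbs, 1.06 and 2.24 TPM in non-repaired limbs, 0.380 and 1.13 TPM in Hya-repaired limbs, and 0.360 to 2.63 TPM (median 0.955) in ECM-repaired limbs. All 10 injured limbs lay below both sham-operated limbs, and the ECM-repaired limb of pig 024 came closest. On the log2 scale the difference was -1.37 ± 0.44 (SE, adjusted p = 0.0198, limma) and -2.06 after rescaling (adjusted p = 0.0008). The call was lost without either sham-operated limb (adjusted p up to 0.169). IL6ST, or gp130, the signaling chain shared by the interleukin-6 family, was 6.90 and 6.98 TPM in sham-operated limbs and 2.42 to 16.4 TPM in injured limbs, so the groups overlapped, and it was called lower only on the rescaled values (-1.11, adjusted p = 0.0176, limma; as deposited -0.35, adjusted p = 0.508).

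**Figure D2:**
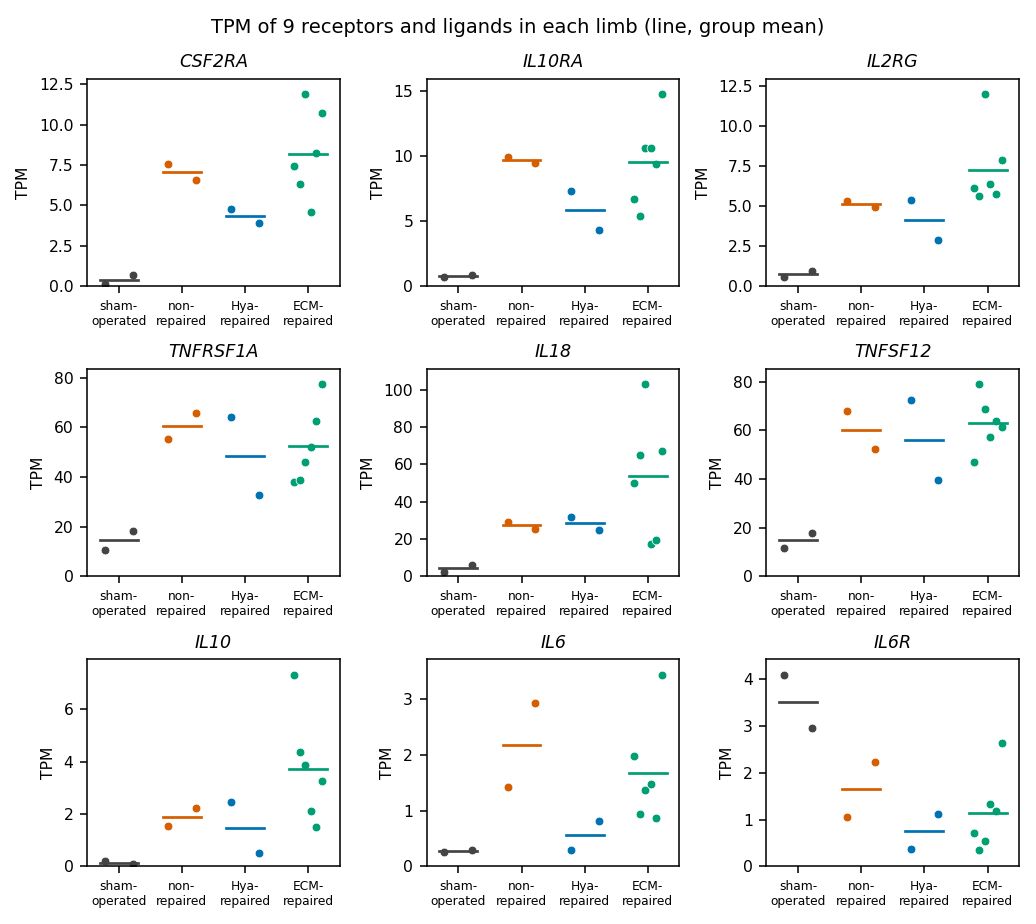
TPM of 9 members in each limb, on linear axes that start at 0, with a point per limb, a line at the group mean and pigs in number order from left to right in each group. For 8 of the 9 genes every injured limb lies above both sham-operated limbs, with IL6 in the Hya-repaired limb of pig 016 (0.298 TPM) at the level of the shams (up to 0.297 TPM), and for IL6R every injured limb lies below them.

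Among ligands, IL18 and TNFSF12 had the highest mean levels in injured muscle and the largest fold changes as deposited, whereas after rescaling IL10 and IL16 had larger fold changes than TNFSF12. IL18, a cytokine of the interleukin-1 family that macrophages hold as a precursor until it is cleaved, was at 2.35 and 6.05 TPM in sham-operated limbs, 29.3 and 25.2 TPM in non-repaired limbs, 32.0 and 24.8 TPM in Hya-repaired limbs, and 17.2 to 103 TPM (median 57.3) in ECM-repaired limbs. The ECM-repaired limbs of pigs 013, 014, 018 and 024 (49.8 to 103 TPM) exceeded all other injured limbs, while those of pigs 021 and 022 (17.2 and 19.5 TPM) were the lowest injured limbs. The log2 fold change was 2.93 ± 0.59 (SE, adjusted p = 0.00128, limma), and 2.20 after rescaling (adjusted p = 0.0103). Its receptor chain IL18R1 was under the filter, at 0.136 and 0.186 TPM in sham-operated and 0.198 to 2.95 TPM in injured limbs.

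TNFSF12, or TWEAK, the ligand of TNFRSF12A, was at 11.6 and 17.8 TPM in sham-operated limbs, 68.0 and 52.2 TPM in non-repaired limbs, 72.3 and 39.7 TPM in Hya-repaired limbs, and 47.1 to 78.8 TPM (median 62.7) in ECM-repaired limbs. The injured limbs lay within a narrow band, 1.99-fold from lowest to highest, and all above the sham-operated limbs. On the log2 scale the difference was 1.98 ± 0.27 (SE, adjusted p = 6.09e-05, limma), and 1.20 after rescaling (adjusted p = 0.00388).

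IL10, a cytokine that restrains macrophage activation, was at 0.213 and 0.0819 TPM in sham-operated limbs, 1.53 and 2.22 TPM in non-repaired limbs, 2.45 and 0.507 TPM in Hya-repaired limbs, and 1.49 to 7.31 TPM (median 3.56) in ECM-repaired limbs. The highest 4 of the 10 injured limbs were ECM-repaired limbs, and the Hya-repaired limb of pig 017 was the lowest. For this gene the log2 fold change was 1.95 ± 0.48 (SE, adjusted p = 0.00445, limma) and 1.65 after rescaling (adjusted p = 0.0176). IL16, a chemoattractant that binds CD4, was at 0.199 and 1.00 TPM in sham-operated limbs, 2.47 and 3.17 TPM in non-repaired limbs, 2.74 and 1.72 TPM in Hya-repaired limbs, and 2.67 to 5.52 TPM (median 3.44) in ECM-repaired limbs. No injured limb overlapped the sham-operated limbs. The log2 fold change was 1.70 ± 0.35 (SE, adjusted p = 0.00137, limma) and 1.25 after rescaling (adjusted p = 0.00564).

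IL25 and IL33, epithelial and stromal cytokines of type II immunity, were called as deposited and not after rescaling. IL25 was at 0.190 and 0.760 TPM in sham-operated limbs, 3.16 and 2.87 TPM in non-repaired limbs, 4.88 and 1.01 TPM in Hya-repaired limbs, and 0.614 to 4.05 TPM (median 2.16) in ECM-repaired limbs, so 2 ECM-repaired limbs fell within the sham-operated range. IL33 was at 3.34 and 2.99 TPM in sham-operated limbs, 13.7 and 36.7 TPM in non-repaired limbs, 4.74 and 5.52 TPM in Hya-repaired limbs, and 4.42 to 35.0 TPM (median 7.77) in ECM-repaired limbs. The non-repaired limb of pig 023 and the ECM-repaired limb of pig 024 stood far above the other injured limbs for IL33. The log2 fold changes were 1.62 for IL25 (adjusted p = 0.0355, limma) and 1.56 for IL33 (adjusted p = 0.0395, limma), and 1.19 and 0.83 after rescaling (adjusted p = 0.0613 and 0.144). IL1RL1, or ST2, the receptor of interleukin-33, ranged from 2.21 to 224 TPM in injured limbs, 102-fold, and was not called (log2 fold change 0.91 ± 1.35, SE). Its 224 TPM were in pig 024, which also held the second highest IL33 value. IL17RB, the receptor of interleukin-25, ranged from 0.211 to 1.33 TPM in injured limbs and was not called (adjusted p = 0.256, limma).

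The other ligands called higher were at lower levels or moved less. IL6 was at 0.267 and 0.297 TPM in sham-operated limbs and 0.298 to 3.44 TPM in injured limbs, with a log2 fold change of 1.16 (adjusted p = 0.0239, limma) that was not called after rescaling (0.78, adjusted p = 0.0604). A row named IL-6 stands beside it in the table, outside the name rule, and reads could have been divided between both rows. Their sum was 0.267 to 0.844 TPM in sham-operated and 0.663 to 5.44 TPM in injured limbs, which overlap. TNFSF9, TNFSF13B and IL23A, which act on T cells, B cells and type 17 lymphocytes, had log2 fold changes of 1.37, 1.37 and 1.24 and were called on both scales. IL23A also has a neighbor named IL-23, and the sum of both was 0.0735 to 1.41 TPM in sham-operated and 0.641 to 2.65 TPM in injured limbs. TNFSF13, or APRIL, was 9.84 and 13.4 TPM in sham-operated and 14.8 to 22.3 TPM in injured limbs, a log2 fold change of 0.73 (adjusted p = 0.0112, limma) that reversed to -0.04 after rescaling.

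CSF3, or G-CSF, which drives neutrophil production, had the opposite direction. It was at 2.85 and 5.66 TPM in sham-operated limbs, 2.40 and 1.62 TPM in non-repaired limbs, 0.898 and 3.28 TPM in Hya-repaired limbs, and 0.194 to 2.50 TPM (median 1.17) in ECM-repaired limbs. The Hya-repaired limb of pig 017 alone lay within the sham-operated range, and the others were below it. The difference did not pass the threshold as deposited (-1.18, adjusted p = 0.0737, limma) and passed it after rescaling (-1.88, adjusted p = 0.00892). It also passed in ECM-repaired against sham-operated limbs (-1.69, adjusted p = 0.019, limma).

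The inhibitor IL18BP, a secreted decoy that binds interleukin-18, was at 2.41 and 6.56 TPM in sham-operated limbs, 10.9 and 19.6 TPM in non-repaired limbs, 21.9 and 6.32 TPM in Hya-repaired limbs, and 3.25 to 19.5 TPM (median 7.70) in ECM-repaired limbs. Injured and sham-operated limbs overlapped, and the difference was not called (1.33, adjusted p = 0.0897, limma). IL1RN, the interleukin-1 receptor antagonist, did not exceed 0.161 TPM.

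**Figure D3:**
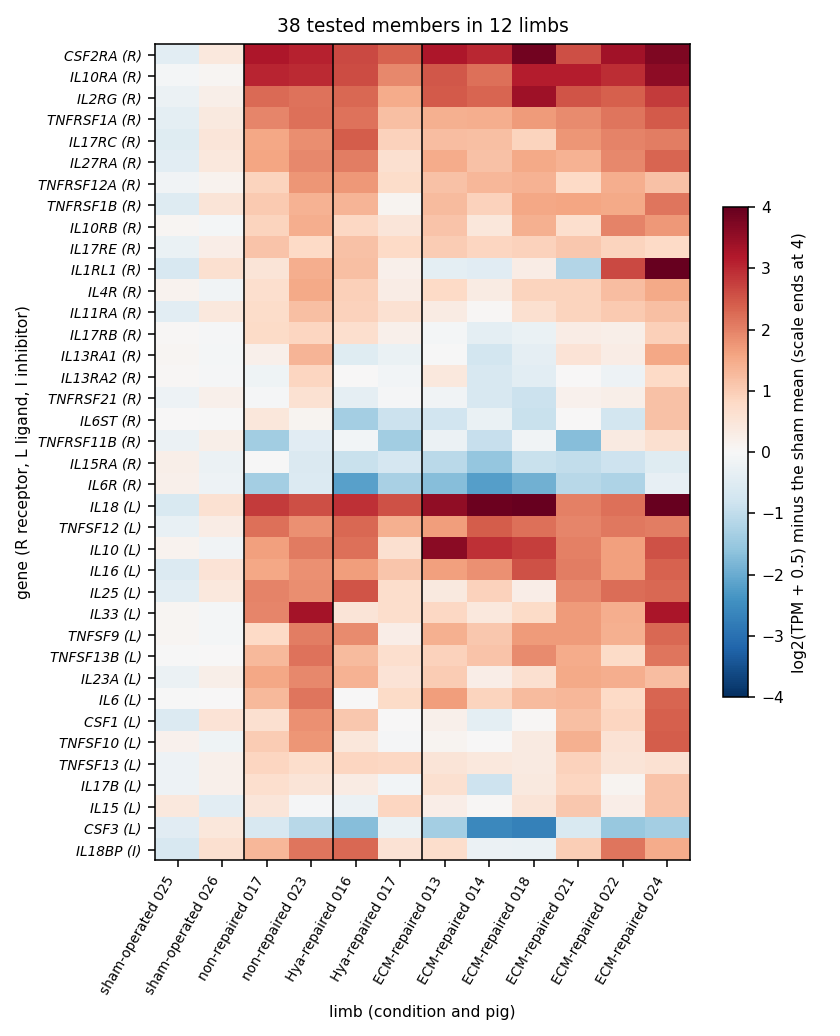
Level of each of the 38 tested members in the 12 limbs, as log2(TPM + 0.5) minus the mean of the sham-operated limbs, with limbs in columns and genes in rows ordered by role and fold change. Red is above and blue below the sham mean, and the scale ends at 4. The upper receptors and ligands are red in all 10 injured limbs, the rows of IL6R, IL15RA and CSF3 are mostly blue, and the column of pig 024 is among the reddest.

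Of the 51 members under the filter, those that reached 1 TPM in a limb were IL34 (highest 12.7 TPM), TNFRSF17 (3.11), IL18R1 (2.95), IL17RD (2.78), IL1R2 (2.76), IL7 (2.39), IL31RA (2.23), IL1RAP (1.73), IL7R (1.70), IL2RB (1.51), IL23R (1.41) and IL20RB (1.25 TPM). IL34, a second ligand of the CSF1 receptor, was at 9.79 and 3.61 TPM in the limbs of pig 017 and 12.7 TPM in pig 024, and at most 0.196 TPM in the other 9 limbs, both shams included. The interleukin-7 pair was low and its groups did not overlap. IL7, a lymphocyte survival factor, was at 0.0775 and 0.103 TPM in sham-operated and 0.690 to 2.39 TPM in injured limbs, and IL7R at 0.267 and 0.393 TPM against 0.543 to 1.70 TPM. The decoy receptor IL1R2 was at 0.0193 and 0.0770 TPM against 0.343 to 2.76 TPM.

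Without the filter, 84 members entered the test, of which 28 were higher and 1 was lower, beside 39.9% and 5.89% of all genes. The calls that the filter had kept out were IL7, IL27, TNFSF8 and TNFSF15 among ligands and IL7R, IL23R, IL20RB and IL1R2 among receptors, with log2 fold changes from 0.68 for TNFSF8 to 1.51 for IL7. All 10 injured limbs lay above both sham-operated limbs for 32 of the 84 members that were above 0 in a library (38.1%; 16 receptors and 16 ligands), beside 42.9% of all such genes. IL6R was the 1 member with all injured limbs below, beside 7.03% of genes.

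Highest levels under 1 TPM were found for the 39 remaining untested members. The receptors were IL21R (0.979), TNFRSF19 (0.973), IL2RA (0.607), TNFRSF9 (0.412), IL9R (0.399), IL12RB1 (0.396), TNFRSF13B (0.299), IL18RAP (0.208), IL5RA (0.128) and IL12RB2 (0.119 TPM). The ligands were IL27 (0.908), TNFSF8 (0.773), TNFSF14 (0.738), TNFSF11 (0.724), TNFSF15 (0.717), IL26 (0.667), TNFSF4 (0.592), IL5 (0.535), IL17C (0.268), IL17F (0.186), IL12B (0.152), IL12A (0.124), IL21 (0.0873), IL28B (0.0588) and IL9 (0.0546 TPM), beside the cytokines and the rows at 0 given above. The row IL1-R MYD88 reached 0.276 TPM.

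The ligands and the receptors were then set beside each other as sums. The 41 receptors summed to 159 and 211 TPM in sham-operated limbs and 271 to 747 TPM in injured limbs, and the 45 ligands to 48.3 and 68.3 TPM against 124 to 296 TPM. The ratio of ligand to receptor TPM was 0.303 and 0.323 in sham-operated limbs and 0.313 to 0.604 in injured limbs, so the lowest injured limb, the ECM-repaired limb of pig 022, lay between the shams and the other 9 lay above. The sums hold only the rows taken by name. CSF1R, CSF2RB and CSF3R, whose names no row carried, are not among them. Nor are the IL1R1, IL17RA and IL3RA rows under a numbered locus name. Ligands outside the name rule, such as TNF, LTB and the rows IL-6 and IL-23, are left out too. The ratio with such rows added was not computed, so it describes the named rows alone. A few genes set the sums. IL18 and TNFSF12 made up 28.9 and 34.9% of ligand TPM in sham-operated limbs and 38.3 to 73.8% in injured limbs, and TNFRSF12A made up 17.9 to 45.7% of receptor TPM over all limbs. Without IL18 and TNFSF12 the ligands summed to 34.3 and 44.4 TPM in sham-operated limbs and 50.9 to 167 TPM in injured limbs. The ratio of these ligands to all receptors was 0.215 and 0.210 in sham-operated limbs and 0.142 to 0.267 in injured limbs, 5 of which lay below both sham-operated limbs and 5 above. These ratios within a library do not depend on the scaling.

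Ratios of single ligands to their partners separated the groups for some pairs and not for others. The ratio of IL6 to IL6R was 0.0653 and 0.101 in sham-operated limbs and 0.724 to 2.74 in injured limbs, without overlap. For IL15 to IL15RA it was 0.798 and 1.09 against 1.42 to 5.93, although IL15 itself did not pass the test (log2 fold change 0.36, adjusted p = 0.44, limma). In both pairs the fold change as deposited was negative for the receptor chain and positive for the ligand. The ratio of TNFSF12 to TNFRSF12A overlapped, at 0.214 and 0.273 against 0.260 to 0.609. That of IL10 to IL10RA also overlapped, at 0.0968 and 0.305 against 0.117 to 1.096. IL18 to IL18BP was near 1 in sham-operated limbs (0.922 and 0.974) and 0.999 to 31.7 in injured limbs, where the 3 highest ratios were in the ECM-repaired limbs of pigs 013, 014 and 018.

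The other pairs were described in the same way. The ratio of IL7 to IL7R was 0.197 and 0.388 in sham-operated limbs against 0.924 to 3.55 in injured limbs, that of IL27 to IL27RA 0.0122 and 0.0211 against 0.0589 to 0.144, and that of TNFSF9 to TNFRSF9 0.765 and 1.42 against 2.03 to 30.1, none of which overlapped. Each of these pairs holds a member under the filter, so the ratios rest on low levels. In sham-operated limbs IL7 reached 0.103 TPM and IL27 0.0313 TPM, and TNFRSF9 did not exceed 0.412 TPM in any limb. The ratios of IL33 to IL1RL1, IL18 to IL18R1, IL25 to IL17RB, IL23A to IL23R, and TNFSF13 and TNFSF13B to TNFRSF17 overlapped between sham-operated and injured limbs. All these ratios describe transcripts and were not tested.

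**Figure D4:**
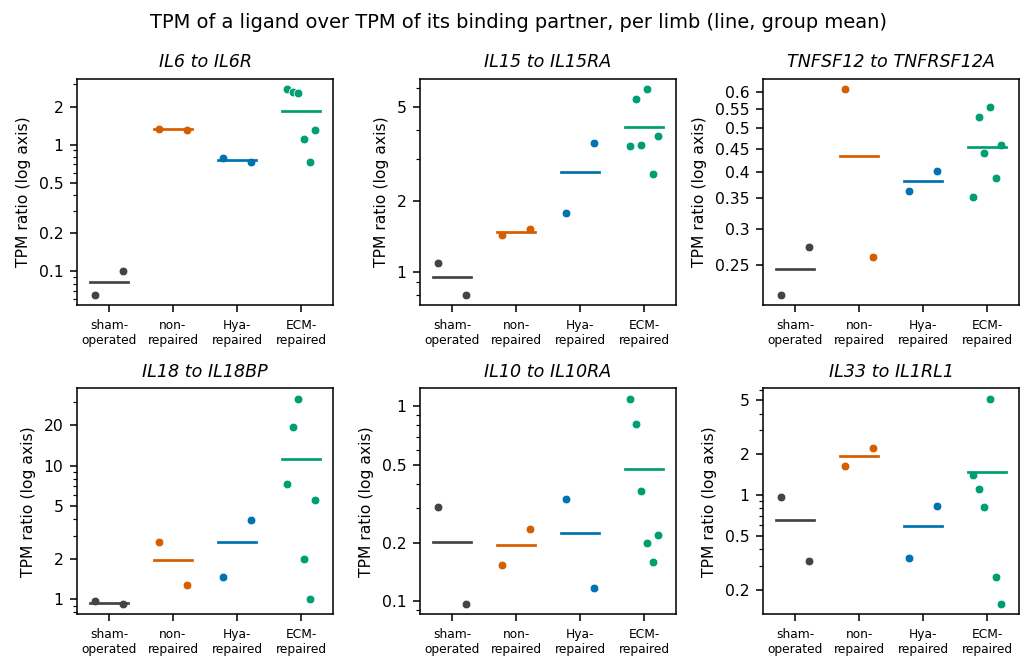
Ratio of a ligand's TPM to that of its binding partner in each limb, for 6 pairs on log axes, with a line at the group mean. The sham-operated points lie below every injured point for IL6 to IL6R, IL15 to IL15RA and IL18 to IL18BP, and overlap the injured points for the other 3 pairs.

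Each injured group was also compared with the same 2 sham-operated limbs. In ECM-repaired limbs 20 members were higher (11 receptors and 9 ligands) and 3 were lower (IL6R, IL15RA and CSF3), beside 48% and 10% of genes. In non-repaired limbs 18 were higher (9 receptors and 9 ligands) and 0 lower, beside 45.1% and 1.18%. In Hya-repaired limbs 12 were higher (8 receptors and 4 ligands) and IL6R was lower, beside 33.9% and 3.76%. CSF2RA had log2 fold changes of 3.30, 3.15 and 2.50 in ECM-repaired, non-repaired and Hya-repaired limbs, IL18 had 3.38, 2.68 and 2.73, and TNFSF12 had 2.07, 2.01 and 1.86 (limma, adjusted p under 0.05 for each). IL10 was called in ECM-repaired limbs (2.58, adjusted p = 0.000857, limma) and non-repaired limbs (1.86, adjusted p = 0.0239) and had a log2 fold change of 1.42 in Hya-repaired limbs (adjusted p = 0.0812). IL6 had 1.38, 1.72 and 0.39 in the same order, of which the last did not pass (adjusted p = 0.546, limma). Without the sham-operated limb of pig 025 the counts of higher members were 8, 5 and 4 in ECM-repaired, non-repaired and Hya-repaired limbs, beside 29.2%, 24.5% and 16% of genes. Without the non-repaired limb of pig 023 the count in non-repaired limbs was 7, beside 28.2%, and without the limb of pig 016 that in Hya-repaired limbs was 3, beside 14.4%.

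Tests between the injured groups called none of the members, and none of the 8782 genes (0%), in any of 4 comparisons with limma. At an unadjusted p under 0.05 there were 1 member for ECM-repaired against non-repaired limbs (IL15RA), 4 for ECM-repaired against Hya-repaired limbs (CSF2RA, IL10, IL2RG and IL6), 3 for Hya-repaired against non-repaired limbs (IL33, IL6 and IL6ST) and 2 for ECM-repaired limbs against the mean of the other injured groups (IL10 and IL2RG). Over all genes these numbers were 71, 206, 196 and 114. IL6 and IL10 had passed the filter without the Hya-repaired limbs. The difference for IL10 between ECM-repaired limbs and the other injured groups was 0.94 on the log2 scale (95% confidence interval 0.09 to 1.78, adjusted p = 0.9995, limma). For TNFSF12 that difference was 0.14 (-0.33 to 0.61), for TNFRSF1A -0.06 (-0.63 to 0.52) and for IL18 0.67 (-0.37 to 1.71). The half-width of this interval was 0.69 in the median over the 38 members. It was 0.87 for ECM-repaired limbs against either other injured group and 1.07 for Hya-repaired against non-repaired limbs. These intervals are not adjusted for the 8782 genes, so differences of these sizes and larger between repairs could go undetected.

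Levels also varied between the limbs of a group. The ECM-repaired limb of pig 024 was the highest injured limb for 19 of the 38 tested members (50.0%), which is near its share of all tested genes (49.2%). After rescaling these were 5 members (13.2%) and 13.6% of genes. The Hya-repaired limb of pig 017 was the lowest injured limb for 14 members as deposited (36.8%, beside 37.9% of genes) and 8 after rescaling (21.1%, beside 15.0%). The ECM-repaired limb of pig 014 was the lowest for 11 members (28.9%, beside 21.7%) and 8 after rescaling (21.1%, beside 14.6%).

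Genes that carry the signals of these receptors were described from lists. Of 17 tested genes of JAK-STAT signaling and its SOCS inhibitors, 9 (52.9%) were higher and 0 lower, and after rescaling 6 (35.3%) were higher and 4 (23.5%) lower, beside 49.4% higher and 7.66% lower of all tested genes as deposited and 29% and 28% after rescaling. The smallest p belonged to PTPN6, a phosphatase of leukocyte receptors (2.97 on the log2 scale, adjusted p = 3.61e-06, limma), SOCS1, a feedback inhibitor of JAK kinases (2.48), and STAT6, the factor downstream of interleukin-4 (2.59), and all remained past the threshold after rescaling (2.39, 1.91 and 1.83). Other genes of the list had the opposite direction, though none was called lower as deposited. CISH, also of the SOCS family, was at 20.1 and 30.2 TPM in sham-operated limbs and 1.18 to 16.7 TPM in injured limbs. STAT5B was at 65.1 and 66.5 TPM against 14.5 to 57.5 TPM. The list of NF-kB and TRAF signaling held 25 genes, of which 17 had a row and 16 were tested. Of these 16, 5 (31.2%) were higher and 0 lower, with CASP8, NFKB2 and RELA at 1.16, 1.19 and 0.95. After rescaling 1 (6.25%) was higher, CASP8, and 4 (25%) were lower. No test compared these shares with those of all genes. Of 6 tested genes of MYD88 and IRAK signaling (10 listed, 7 with a row), 3 (50%) were higher: MYD88 (2.69, adjusted p = 1.37e-05, limma), IRAK4 (2.32) and TAB1 (0.82). TAB1 was not called after rescaling (0.05), which left 33.3% higher.

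Family members that the name rule left out were listed too, 36 names of which 23 had a row. Of 13 tested, 8 (61.5%) were higher and 1 lower (5 and 2, or 38.5% and 15.4%, after rescaling), with IFNGR1, an interferon-gamma receptor chain, at 1.53, CD40, a TNF receptor of antigen-presenting cells, at 1.87, and LTBR, the lymphotoxin receptor, at 1.60. LIFR, the leukemia inhibitory factor receptor, which pairs with IL6ST, was the 1 lower (-2.18, adjusted p = 0.00461, limma; -2.92 after rescaling). Rows under a numbered locus name that the reference lists as IL17RA, IL1R1 and IL3RA had log2 fold changes of 2.06, 1.99 and 1.80 (adjusted p = 0.00174, 0.00311 and 0.0121, limma). After rescaling IL17RA and IL1R1 were called (1.34 and 1.23) and IL3RA was not (1.06, adjusted p = 0.0775). CSF1R, CSF2RB and CSF3R would fit the name rule, but no row carried those names.

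The calls rested on the 2 sham-operated limbs. Among the members named next, CSF2RA, IL10RA, IL2RG and IL10 were below 1 TPM in both of these limbs. They passed the filter through injured limbs alone, which favors higher calls, and were not tested under the filter of 1 TPM in all 12 libraries. How many of all genes were called in every alternative was not counted. Of the 24 members called between VML-injured and sham-operated muscle, 7 were called in every alternative in which they were tested: CSF2RA, IL10RA, IL2RG, TNFRSF1A, IL18, TNFSF12 and IL10. Without the sham-operated limb of pig 025, those 7 of 39 tested members were called higher and 0 were lower, beside 27.7% and 1.42% of genes. Without that of pig 026, 16 of 38 were higher and 0 lower, beside 40.6% and 2.02%.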

How the data were processed

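Per the labels and the study's methods, the authors isolated total RNA from PT muscle, made TruSeq libraries, sequenced paired ends and pseudoaligned them to the pig genome with kallisto at default settings. The deposited values are TPM made by the authors, with gene symbols and no coordinates. Depth per library is unknown, so the number of limbs limits the precision. No sequences were used here. Of the names, 21 had become dates and were not used as names.

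The 8782 genes at 1 TPM or more in every library of any one condition were fitted as log2(TPM + 0.5) in 12 libraries with limma 3.58.1 in R 4.3.3 (lmFit, eBayes with trend and robust estimation), a coefficient per condition, two-sided, with Benjamini-Hochberg adjustment over all genes and a threshold of 0.05. Fold changes on this scale understate changes of low genes. Rescaled values were TPM times a factor per library from mean log ratios trimmed by 30%, and by 5% on abundance. Other alternatives were pseudocounts of 0.1 and 1, no filter, at least 1 TPM in all 12 libraries, no trend or robust estimation, 2-fold calls, libraries of the compared groups alone, each limb left out, and both limbs of pig 017 left out. Where 1 limb remains in a group, it is assumed to vary like the others. The method was tested on simulated data with independent noise and few changed genes. These data had no shift of a whole library and no pig with 2 limbs, so they do not bear on either. Figures and sums used Python 3.11.15, pandas 2.3.3 and matplotlib 3.10.9.

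Members, ligand and receptor pairs and gene lists were chosen with earlier results of these data known. Values in every limb are given for called receptors with the 8 largest and called ligands with the 6 largest absolute log2 fold changes, members called lower, and their partners. For the pathway lists, the 3 genes of smallest p are named. CSF3, TNFSF13, IL34, IL7, IL7R, IL1R2, CISH and STAT5B were added after their values were seen.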

Additional observations from a re-analysis of the deposited data

Results flagged for a closer look

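In the group of 6 ECM-repaired limbs, the 38 tested members were examined for a limb that stood apart by the gap rule of Dixon. Chance meets this rule in about 1 of 20 groups of normally spread values, which TPM need not be. It was met by 8 members, 7 of them in the limb of pig 024. The rule was not run over the other genes, so no share of all genes stands beside the 8. The limb of pig 024 was the highest injured limb for 49.2% of all tested genes as deposited. That limb had 224 TPM of IL1RL1, where the others had 2.21 to 38.4 TPM, and 35.0 TPM of its ligand IL33, where the others had 4.42 to 11.4 TPM. It also had 53.8 TPM of IL13RA1 (others up to 26.7), 30.3 TPM of TNFSF10 (others up to 14.6), 23.03 TPM of CSF1 (others up to 9.77), 16.4 TPM of IL6ST (others up to 6.97) and 7.13 TPM of TNFRSF21 (others up to 3.47). The library of pig 024 had the smallest scaling factor, 0.625, and the highest median TPM, 18.4, and its endothelial markers summed to 653 TPM, beside 134 to 382 TPM in the other ECM-repaired limbs. Their part in these values was not tested. The limb of pig 018 had 11.99 TPM of IL2RG, where the others had 5.60 to 7.85 TPM, and its leukocyte markers summed to 290 TPM, the highest of the 12 limbs.

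A pair of members outside the tests were at 0 in both sham-operated limbs and above 1 TPM elsewhere. IL34 reached 12.7 TPM in pig 024. IL31RA was at 2.23 TPM in the non-repaired limb of pig 023 and at 0 in the other 11 limbs.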

How the results depend on the processing

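After rescaling, the counts against sham changed as follows. For VML-injured muscle, receptors went from 12 to 6 higher and 1 to 4 lower, ligands from 11 to 7 higher and 0 to 1 lower, and pathway genes from 25 to 14 higher and 1 to 10 lower. Over all genes these shares went from 49.4% to 29% higher and from 7.66% to 28% lower. Non-repaired limbs went from 18 to 11 higher and 0 to 3 lower, beside 22.1% and 20.8% of all genes after rescaling. Hya-repaired limbs went from 1 to 3 lower, beside 19.2% of all genes after rescaling. With at least 1 TPM in all 12 libraries, which leaves fewer genes, there were 4 ligands higher, 0 receptors and 0 pathway genes lower, 11 members higher and 0 lower in ECM-repaired limbs, 10 higher in non-repaired limbs and 0 lower in Hya-repaired limbs. Without both limbs of pig 017, 1 ligand and 2 pathway genes were lower. With the libraries of the 2 groups alone, 6 members were higher in Hya-repaired limbs and 2 were lower in non-repaired limbs. For these settings other than rescaling, and for most fits with a limb left out, the share of all genes was not computed. Their counts describe the settings and are not set against the other genes.

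With each limb left out in turn, receptors ranged from 4 to 15 higher and 0 to 2 lower, ligands from 3 to 11 higher and 0 to 1 lower, and pathway genes from 12 to 28 higher and 0 to 6 lower. ECM-repaired limbs ranged from 8 to 22 higher and 1 to 3 lower, non-repaired limbs from 5 to 25 higher, and Hya-repaired limbs from 3 to 18 higher and 0 to 2 lower. The lowest counts of higher members came without the sham-operated limb of pig 025, except that the 3 in Hya-repaired limbs came without the limb of pig 016. ECM-repaired against non-repaired limbs ranged from 0 to 1 called, the 1 being IL31RA without the non-repaired limb of pig 017 (-2.45 on the log2 scale, adjusted p = 0.0218, limma), which rests on the single limb of pig 023.

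Rescaling reversed the log2 fold changes of IL13RA1 (-0.58), IL13RA2 (-0.51), IL15 (-0.30), IL17B (-0.39), TNFRSF21 (-0.68) and TNFSF13 (-0.045). With a limb left out, IL13RA2 ranged from -0.069 (without pig 023) to 0.27, IL15 from -0.053 (without pig 026) to 0.77 and TNFRSF21 from -0.20 (without pig 025) to 0.23. Except for TNFSF13, none of these was called as deposited. The causes were not tested. The labels give no replicate numbers, and a term for the pig, of which 1 gave 2 limbs, was not fitted.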
